A study of Mus musculus with 18 samples.

Results

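The B cell receptor and its proximal signaling genes were described as a group of 9 genes: Cd79a, Cd79b, Cr2, Cd81, Lyn, Syk, Btk, Blnk and Plcg2. They were found by gene symbol in the deposited expression table, where all 9 of them were among 21761 genes. The study itself had named Btk as higher in Dnmt3-deficient plasma cells, so Btk was chosen by its plasma cell values, which are given as a description with no test. The other 8 genes were listed for their place in the pathway, with earlier results of these data known.

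The RNA came from sorted mouse B lineage cells in 18 libraries, with 3 libraries for each of 6 groups. The comparison of genotypes asked how expression depends on Dnmt3a and Dnmt3b, which methylate new sites in DNA. All mice carried floxed Dnmt3a and Dnmt3b alleles (Dnmt3afl/fl, Dnmt3bfl/fl) on the strain background B6;129S4-Dnmt3atm3.1Enl Dnmt3btm5.1Enl/Mmnc. Dnmt3-deficient mice carried a Cre recombinase active in B lineage cells, and Dnmt3-sufficient mice had no Cre. Lymph nodes of unimmunized mice gave the naive B cells (nB), sorted as B220+ GL7- Fas-. The germinal center B cells (GCB) were also from lymph nodes, sorted as B220+ GL7+ Fas+ and binding the antigen phycoerythrin (PE). Plasma cells of the bone marrow (BMPC) were sorted by CD138. These 2 types were collected 30 days after immunization with PE in complete Freund's adjuvant, and each GCB sample pooled 2 mice. Ages were not in the labels. The nB and GCB libraries of each genotype came from 2 female samples and 1 male sample, and the BMPC libraries of each genotype from 1 female and 2 male samples.

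The B cell receptor is a membrane immunoglobulin that binds antigen, joined to a heterodimer of Cd79a and Cd79b that carries the signal into the cell. When antigen binds, the Src family kinase Lyn phosphorylates tyrosines in the Cd79a and Cd79b tails, Syk docks on them, and Syk then phosphorylates the adaptor Blnk. Blnk brings Btk to its substrate Plcg2, whose products release calcium and activate protein kinase C and Ras. A coreceptor that includes Cr2 (the complement receptor CD21) and Cd81 lowers the threshold for this signal. As B cells become plasma cells, they secrete their immunoglobulin and turn down much of the mature B cell program.

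The stretches that carry the phosphorylated tyrosines of Cd79a and Cd79b are shown because Lyn acts on them and Syk docks on them. Capitals mark the 4 codons of the paired motif, in which each tyrosine codon is followed after 2 codons by a leucine or isoleucine codon.
Cd79a: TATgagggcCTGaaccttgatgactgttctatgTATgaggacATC
Cd79b: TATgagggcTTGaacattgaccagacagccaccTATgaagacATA
Both were read 5′ to 3′ from the annotated transcripts on mm9. The Cd79a stretch runs over chr7:25686315-25686320 (exon 4 of 5) and chr7:25686450-25686488 (exon 5) on the plus strand, and the Cd79b stretch over chr11:106173321-106173326 (exon 5 of 6) and chr11:106173181-106173219 (exon 6) on the minus strand. The stretches were identical at 31 of 45 bases (68.9%), with 7 codons between the paired parts in each. In both genes the last intron falls after the second codon of the stretch.

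Promoter windows from RefSeq (build GRCm38.p6, 250 bases before to 50 after the start) were at hand for 7 of the 9 genes, and those of Cd79b and Lyn were not used here. They were searched on both strands for 4 motifs of B cell factors, and no overlap between different motifs was found in these genes. The E2A E-box CAGGTG was found in 5 genes (Cr2, Cd79a, Plcg2, Syk and Blnk) and is held by windows of 22.6% of the 27025 genes with a window. The PU.1 core GAGGAA was found in Cd79a, Syk and Btk and in 31.25% of all genes, the octamer ATTTGCAT in Blnk alone and in 1.97%, and the Ebf1 motif (TCCC, any 2 bases, GGGA) in none of the 7 and in 1.06%. The bases before the start of Cr2, Cd79a and Cd81 are shown because these 3 genes changed most, moderately and least between naive and plasma cells, with matched motifs in capitals.
Cr2: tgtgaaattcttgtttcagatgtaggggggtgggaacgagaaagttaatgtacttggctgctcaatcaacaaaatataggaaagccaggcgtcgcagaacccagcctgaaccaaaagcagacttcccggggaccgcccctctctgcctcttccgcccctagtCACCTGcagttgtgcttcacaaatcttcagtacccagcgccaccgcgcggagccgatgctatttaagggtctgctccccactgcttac
Cd79a: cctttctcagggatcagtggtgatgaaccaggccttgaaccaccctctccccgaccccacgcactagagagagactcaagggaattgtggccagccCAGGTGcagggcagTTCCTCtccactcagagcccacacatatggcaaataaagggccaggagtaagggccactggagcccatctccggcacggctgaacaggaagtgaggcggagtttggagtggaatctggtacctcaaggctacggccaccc
Cd81: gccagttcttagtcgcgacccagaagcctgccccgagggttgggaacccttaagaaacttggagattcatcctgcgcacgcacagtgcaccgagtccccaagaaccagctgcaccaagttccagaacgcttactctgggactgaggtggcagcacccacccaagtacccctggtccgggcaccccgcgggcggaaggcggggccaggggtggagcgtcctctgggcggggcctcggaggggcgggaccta
On GRCm38.p6 these are chr1:195176720-195176969 (minus strand), chr7:24897247-24897496 and chr7:143052500-143052749 (both plus strand). The capitals mark an E-box on the opposite strand in Cr2 and an E-box and an opposite-strand PU.1 core in Cd79a, while Cd81 holds none of the 4 motifs. A match is a description of letters and does not show that a factor binds.

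Levels are given as FPKM, the reads of a gene relative to its exon length and to all gene reads of the library, and all changes are on the scale of log2(FPKM + 1). The nB libraries held 6692516 to 8987922 reads, the GCB libraries 7644544 to 8903872 and the BMPC libraries 1355231 to 3803197, so low values are least precise in BMPC. A gene passed when its change was 1 log2 or more in size and its limma adjusted p no higher than 0.05, and each standard error (SE) rests on 1 spread per gene shared over the 18 libraries. Dnmt3a was at 2.24 to 5.18 FPKM in nB and 0 to 3.08 elsewhere and Dnmt3b at 0 to 9.29 in all, with overlapping genotypes except for Dnmt3b in GCB (0.744 to 1.10 FPKM in Dnmt3-deficient and 0 to 0.676 in Dnmt3-sufficient). Sums over all exons do not resolve floxed exons and thus do not check the genotype. Markers were highest in the labelled types: 4 nB markers summed to 1408 to 1641 FPKM in nB and 42.0 to 215 elsewhere, 6 GCB markers to 851 to 915 in GCB and 4.56 to 65.2 elsewhere, and 7 BMPC markers to 18915 to 51504 in BMPC and 312 to 1520 elsewhere. Libraries that stood apart were Dnmt3-deficient nB replicate 2, with the plasma cell gene Jchain at 113 FPKM, and BMPC Dnmt3-sufficient replicate 1 and Dnmt3-deficient replicates 2 and 3, in which neutrophil markers summed to 526, 595 and 566 FPKM against 9.37 to 141 in the other BMPC libraries. All 6 BMPC libraries held reads of Dntt, a gene of early lymphoid cells, at 305 to 581 FPKM. In nB the 4 erythroid markers used here summed to 0.468 to 1.42 FPKM in Dnmt3-sufficient and 22.5, 111 and 218 in Dnmt3-deficient libraries, without overlap, and their part in the genotype values of nB was not tested.

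From nB to BMPC, 6 of the 8 tested genes fell in both genotypes, where 27.6% of all genes tested in Dnmt3-sufficient and 30.6% in Dnmt3-deficient cells did: Cd79a, Cd79b, Cr2, Lyn, Syk and Plcg2. With voom on the recovered reads Cd79b did not pass in either genotype, nor Cd79a in Dnmt3-deficient cells. Cr2 had no read in any BMPC library, the kinases Lyn and Syk fell to a few percent of their naive level in Dnmt3-sufficient cells, and Cd79a and Cd79b stayed at 25.7% to 40.2% of theirs. Cd81 and Blnk did not pass. Between genotypes, 0 of 9 genes passed in nB and in GCB by limma, with 0 at an unadjusted p under 0.05 and 0 with voom in each. Of all genes, 0.0521% passed as higher and 0% as lower in nB, and 0% either way in GCB. An unadjusted p under 0.05 was found for 312 of the 11522 genes tested in nB and 124 in GCB. In BMPC, Lyn alone passed as higher in Dnmt3-deficient cells, where 1.34% of all genes did. An unadjusted limma p under 0.05 was found for 4 of the 8 genes tested and for 2342 of all 11522, and with voom 0 of the 8 passed. The call of Lyn was lost when the spread was taken from the BMPC libraries alone (adjusted p 0.779, limma). In that setting 0 of all 11522 genes passed, as higher or as lower.

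**Figure D1:**
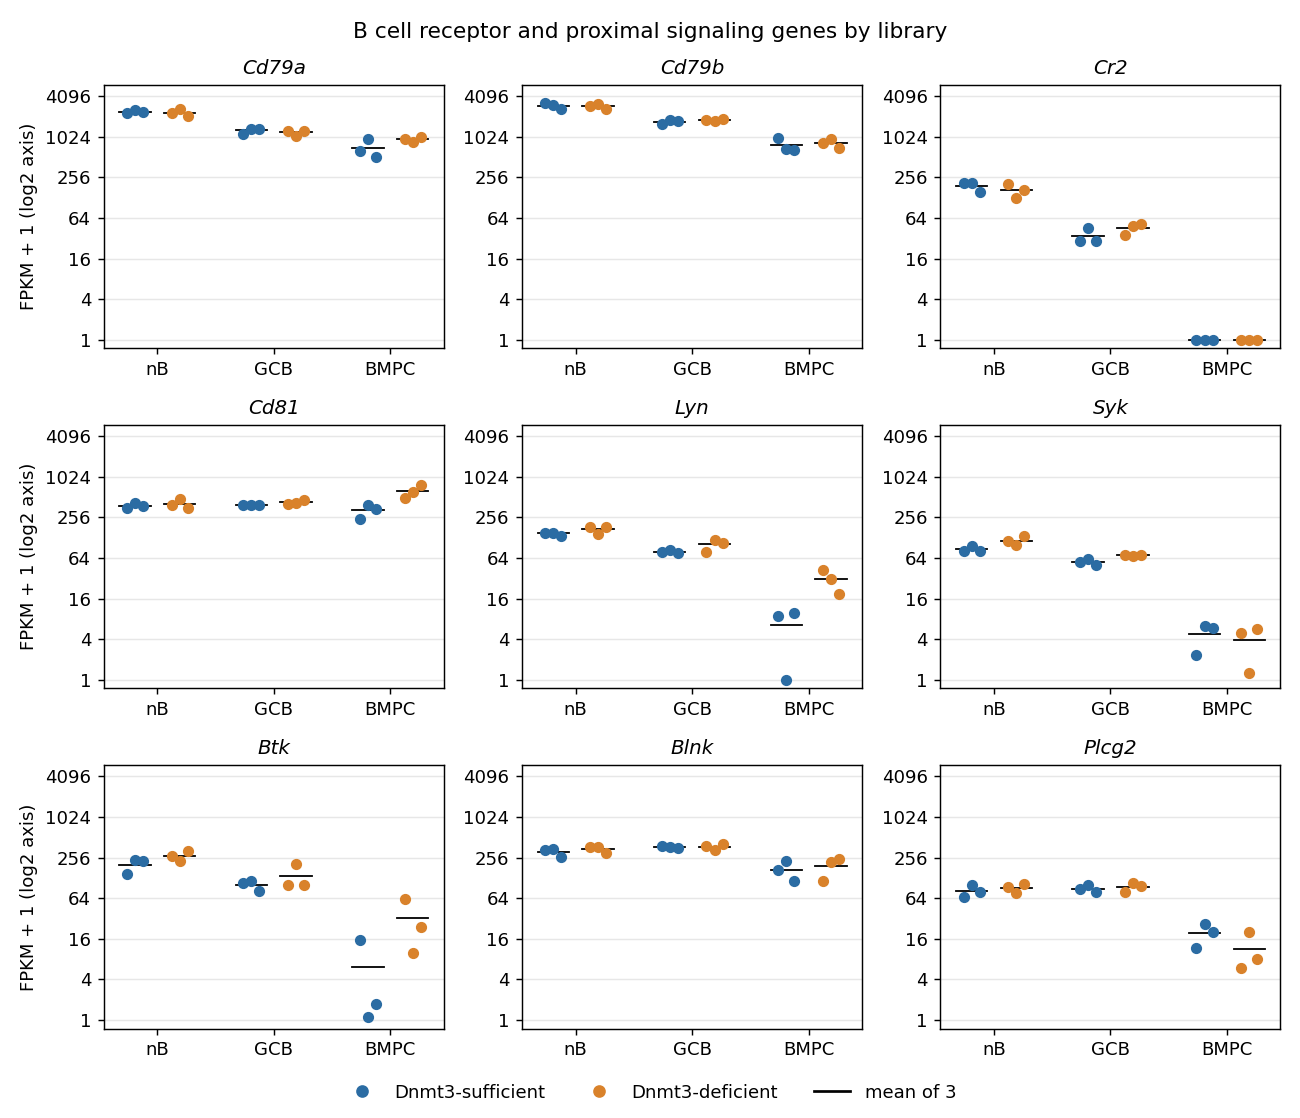
FPKM + 1 of the 9 genes in each of 18 libraries (log2 axis), by cell type, with Dnmt3-sufficient libraries in blue, Dnmt3-deficient in orange and a black line at the mean of 3. Cr2 is at 0 FPKM in the 6 BMPC libraries, whereas Cd81 stays between 242 and 784 FPKM in all 18.

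The receptor subunits Cd79a (Entrez 12518, chromosome 7, 25682400 to 25687216 on mm9) and Cd79b (Entrez 15985, chromosome 11, 106172655 to 106176076) had the highest levels of the 9 genes in every group. Cd79a was at 2294, 2513 and 2351 FPKM in Dnmt3-sufficient nB. It was at 1143, 1323 and 1333 FPKM in the GCB libraries of that genotype and 639, 951 and 510.0 in its BMPC libraries. In Dnmt3-deficient cells the nB libraries had 2291, 2635 and 2046 FPKM, the GCB libraries 1253, 1040.5 and 1261 and the BMPC libraries 962, 841 and 997. The 3 cell types did not overlap within a genotype, and each later type lay lower.

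Cd79a fell from nB to BMPC with a change of -1.82 log2 (SE 0.16, limma adjusted p 4.09e-07) in Dnmt3-sufficient and with a change of -1.31 (adjusted p 1.43e-05) in Dnmt3-deficient cells. With voom the second did not pass (-1.26 log2, adjusted p 0.182). The mean in BMPC was 29.3% and 40.2% of that in nB. The change of Cd79a from nB to GCB was -0.92 and -0.97 log2 (adjusted p 9.04e-04 and 6.13e-04), short of the minimum of 1 log2. From GCB to BMPC the values were -0.90 and -0.34 log2 (adjusted p 6.20e-04 and 0.120), and neither passed. Between genotypes in BMPC the change of Cd79a was 0.46 log2 (limma adjusted p 0.115), with overlap of the libraries.

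Cd79b was at 3269.9, 2995 and 2618 FPKM in Dnmt3-sufficient nB. It was at 1555, 1826 and 1767 FPKM in the GCB libraries of that genotype and 968, 663 and 649 in its BMPC libraries. The Dnmt3-deficient nB libraries had 2908, 3129 and 2683 FPKM, the GCB libraries 1823, 1728 and 1885 and the BMPC libraries 823, 942 and 704.3. As for Cd79a, the cell types did not overlap. Cd79b fell from nB to BMPC with a change of -1.98 and -1.83 log2 (SE 0.14, limma adjusted p 1.88e-08 and 6.37e-08), and from GCB to BMPC with a change of -1.20 and -1.15 log2 (adjusted p 8.02e-06 and 1.09e-05). With voom on the recovered reads none of these falls of Cd79b passed (adjusted p 0.0963 to 0.508), and with median of ratios scaling the last was under 1 log2 (-0.84). From nB to GCB the change was -0.78 and -0.68 log2, under the minimum. Between genotypes in BMPC the change of Cd79b was 0.13 log2 (limma adjusted p 0.664), with overlap of the libraries.

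Since both genes are given per length and their products pair in the receptor, their ratio was compared per library. Cd79a over Cd79b was at 0.701, 0.839 and 0.898 in Dnmt3-sufficient and 0.788, 0.842 and 0.762 in Dnmt3-deficient nB, so Cd79b was the higher in all 6. In GCB the ratio was 0.735, 0.725 and 0.754 in Dnmt3-sufficient and 0.687, 0.602 and 0.669 in Dnmt3-deficient libraries, and every Dnmt3-deficient library lay lower. In BMPC it was 0.660, 1.43 and 0.786 against 1.17, 0.893 and 1.42, with overlap. An exact two-sided permutation test of the log2 ratio between genotypes gave p of 1 in nB, 0.1 in GCB and 0.5 in BMPC, where 0.1 is the smallest that 3 against 3 libraries allow, and adjusted over the 3 comparisons 1, 0.3 and 0.75. The ratio spread from 0.660 to 1.43 in BMPC and from 0.602 to 0.898 in the other libraries.

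**Figure D2:**
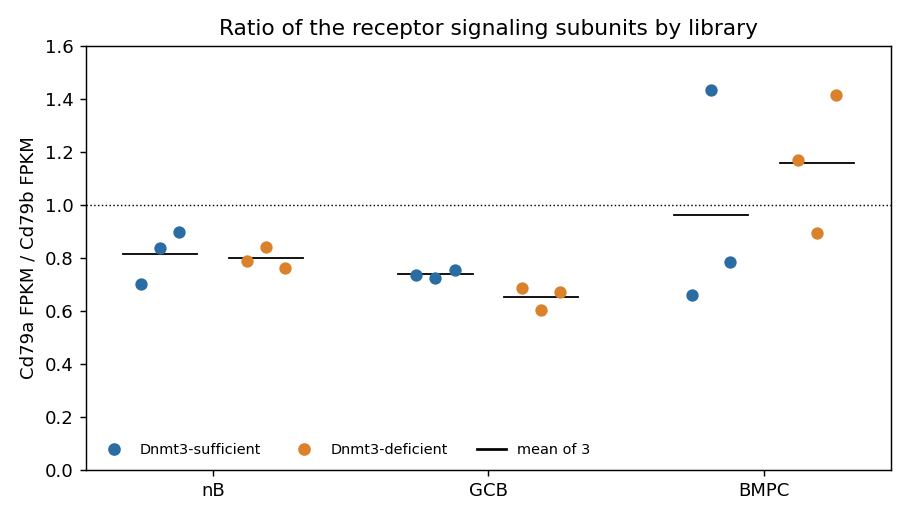
Ratio of Cd79a FPKM to Cd79b FPKM in each library by cell type and genotype, with a black line at the mean of 3 and a dotted line at equal levels. All 12 nB and GCB libraries lie under the dotted line and 3 of 6 BMPC libraries lie above it.

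Among the coreceptor genes, Cr2 (Entrez 12902, chromosome 1, 196963005 to 197002909 on mm9) had the largest change between stages of the 9 genes. It was at 209, 208 and 156 FPKM in Dnmt3-sufficient and 203, 126 and 165 in Dnmt3-deficient nB, and at 28.0, 44.6 and 28.6 and 34.3, 48.1 and 50.8 in GCB. In all 6 BMPC libraries it had 0 reads. Every GCB library thus lay under every nB library and above every BMPC library.

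Cr2 fell from nB to GCB with a change of -2.49 log2 in Dnmt3-sufficient (SE 0.35, limma adjusted p 8.39e-05) and -1.86 in Dnmt3-deficient cells (adjusted p 1.30e-03), and was the only one of the 9 genes to pass in this comparison, in which 6 of 9 lay lower without overlap in each genotype (25.0% and 25.7% of all genes did). Of all genes tested, 6.93% and 6.61% passed with a negative change here. Lyn (-0.90 and -0.75 log2) and Syk (-0.62 and -0.70) were among the 6 that lay lower, under the minimum of 1 log2. Over the alternatives the limma or voom adjusted p of Lyn ran from 1.35e-03 to 0.753 in Dnmt3-sufficient and 7.70e-03 to 0.852 in Dnmt3-deficient cells. For Syk it ran from 4.02e-03 to 0.741 and 2.86e-04 to 0.747. With each BMPC library set at 3 reads, a limit for counting error only, Cr2 was at least 1199.7-fold lower in Dnmt3-sufficient BMPC than in nB and at least 212-fold lower than in GCB. In Dnmt3-deficient cells it was at least 575-fold and at least 155-fold lower. The lower bounds differ between genotypes with the depth of the libraries.

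Cd81 (Entrez 12520, chromosome 7, 150238644 to 150253839), a membrane protein of the tetraspanin family, behaved otherwise. It was at 349, 421 and 381 FPKM in Dnmt3-sufficient and 390.1, 473 and 349 in Dnmt3-deficient nB, and at 387, 389 and 395 and 407, 422 and 459 in GCB. In BMPC it was at 242, 394 and 337 FPKM in Dnmt3-sufficient and 500.2, 619 and 784 in Dnmt3-deficient libraries. Every Dnmt3-deficient BMPC library lay above every Dnmt3-sufficient one, and also above every nB library. Of all genes tested, 3.02% separated in this direction between genotypes in BMPC. In GCB the Dnmt3-deficient libraries also lay above the others, by 0.13 log2 (limma adjusted p 1).

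The change of Cd81 from nB to BMPC was -0.27 log2 in Dnmt3-sufficient (limma adjusted p 0.266) and 0.64 in Dnmt3-deficient cells (adjusted p 0.0117), and neither reached 1 log2. Between genotypes in BMPC it was 0.97 log2 (SE 0.18, adjusted p 6.26e-03, higher in 3 of 3 libraries), under the minimum. The value was 1.15 with median of ratios scaling and 1.03 without immunoglobulin genes and Jchain. The latter setting kept 11519 of the 11522 tested genes and does not control for immunoglobulin RNA. The value also reached 1 log2 when Dnmt3-sufficient replicate 2 (1.12) or 3 (1.01), or replicate 1 of the Dnmt3-deficient libraries (1.13), was left out. The adjusted p of Cd81 was 0.711 with the spread of the BMPC libraries only, where 0 of all 11522 genes passed. It was 0.264 with a quality weight per library. A gene on the opposite strand, R74862, overlaps Cd81, and whether the counting used strand is not stated.

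Lyn, Syk and Btk are the tyrosine kinases of the chain. Lyn (Entrez 17096, chromosome 4, 3605262 to 3740269), the Src family kinase that starts the signal, was at 152, 152 and 137 FPKM in Dnmt3-sufficient and 182, 145 and 182 in Dnmt3-deficient nB, and at 77.0, 82.9 and 76.2 and 78.0, 119.6 and 106 in GCB. In BMPC it was at 7.77, 0 and 8.77 FPKM in Dnmt3-sufficient libraries, from 59, 0 and 110 reads, and 42.2, 30.3 and 18.01 in Dnmt3-deficient libraries, from 238, 142 and 141 reads. Every Dnmt3-deficient BMPC library lay above every Dnmt3-sufficient one.

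The genotype change of Lyn in BMPC was 2.74 log2 (SE 0.61, limma adjusted p 0.0161, higher in 3 of 3 libraries), from means of 5.51 ± 4.80 and 30.2 ± 12.1 FPKM (SD, n = 3). Lyn was 1 of the 8 genes tested to pass, and Lyn and Cd81 were the only ones of the 9 without overlap (3.02% of all genes as higher and 7.31% as lower), where 1.34% of all genes passed with a positive and 2.65% with a negative change. It passed without each BMPC library in turn (1.67 to 3.32 log2, the lowest without Dnmt3-sufficient replicate 2, which had 0 reads of Lyn). It did not pass with a pseudocount of 0.1 (adjusted p 0.0562), with no filter (0.0559), with voom (0.163), with a quality weight per library (0.204) or with the spread of the BMPC libraries only (0.779). With that spread 0 of all 11522 genes passed in either direction. From nB to BMPC, Lyn fell with a change of -5.07 log2 in Dnmt3-sufficient (adjusted p 7.50e-06) and -2.52 in Dnmt3-deficient cells (adjusted p 3.70e-03), to 3.74% and 17.8% of the naive mean. With a pseudocount of 0.1 the second did not pass (-2.56 log2, adjusted p 0.0806).

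Whether the genotype change of Lyn was larger in BMPC than at the earlier stages was tested by the interaction. It was larger by 2.55 log2 than in nB (SE 0.86, limma adjusted p 0.260) and by 2.40 than in GCB (adjusted p 0.355), and did not pass. For all 9 genes, 0 of 8 tested passed in these interactions and 0 of 9 for GCB against nB, where 0.165% and 0.391% of all genes passed with a positive and a negative difference for BMPC against nB, 0.148% and 0.278% for BMPC against GCB and 0% for GCB against nB. Cd81 came nearest, with 0.90 log2 against nB (SE 0.26, adjusted p 0.162), and passed when Dnmt3-sufficient BMPC replicate 2 (1.06, adjusted p 0.0482) was left out, or Dnmt3-deficient BMPC replicate 1 (1.06, adjusted p 0.0347). At an unadjusted p under 0.05 there were 3 of 8 against nB, 3 of 8 against GCB and 0 of 9 for GCB against nB. Of all 11522 genes tested, 1373, 1086 and 204 were under 0.05 in the same comparisons. With voom, 0 of the receptor genes passed in each.

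Syk (Entrez 20963), the kinase that docks on the phosphorylated tails, was at 79.2, 94.9 and 81.7 FPKM in Dnmt3-sufficient and 112, 98.5 and 134 in Dnmt3-deficient nB. In GCB it was at 54.9, 62.0 and 49.2 and 71.4, 67.7 and 70.8 FPKM. Every Dnmt3-deficient library lay above every Dnmt3-sufficient library in both cell types, by 0.42 and 0.34 log2 (SE 0.50, limma adjusted p 1 in both). Of all genes tested, 4.66% in nB and 5.58% in GCB separated in this direction. In the other direction, with all Dnmt3-deficient libraries under all Dnmt3-sufficient ones, were 0 of the 9 receptor genes in either cell type, where 4.17% of all genes in nB and 5.05% in GCB were. In BMPC, Syk was at 1.31, 5.39 and 4.96 FPKM in Dnmt3-sufficient and 3.90, 0.276 and 4.69 in Dnmt3-deficient libraries, from 3 to 164 reads, with overlap of the genotypes (-0.43 log2, adjusted p 0.700). It fell from nB to BMPC with a change of -4.27 and -5.13 log2 (adjusted p 5.82e-06 and 1.02e-06), to 4.55% and 2.57% of the naive mean.

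Btk (Entrez 12229, chromosome X, 131076875 to 131118109), the kinase that activates Plcg2, was at 148, 231 and 225 FPKM in Dnmt3-sufficient and 268, 228 and 321 in Dnmt3-deficient nB, and at 106, 114 and 80.3 and 101, 204 and 99.2 in GCB. The genotypes overlapped in both, with a change of 0.45 log2 in nB and 0.36 in GCB (SE 0.75, limma adjusted p 1 in both). In GCB, Dnmt3-deficient replicate 2 was the highest library, and without it the change was 0.02 log2. The change of Btk from nB to GCB was -0.99 and -1.08 log2 (adjusted p 0.454 and 0.432), with no overlap of libraries. It passed with voom in both genotypes (-1.05 and -1.12 log2, adjusted p 0.0172 and 3.31e-03).

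In BMPC, Btk was at 14.4, 0.104 and 0.761 FPKM in Dnmt3-sufficient libraries, from 80, 1 and 7 reads, and 61.8, 9.02 and 23.3 in Dnmt3-deficient libraries, from 256, 31 and 134 reads. The genotypes overlapped, since Dnmt3-sufficient replicate 1 lay above Dnmt3-deficient replicate 2. Btk was chosen for this difference, which was 3.0 log2 as a description and ranged from 2.26 to 4.35 log2 over the alternatives. All BMPC libraries lay under all nB and GCB libraries, and the BMPC mean was 2.52% of the nB mean in Dnmt3-sufficient and 11.5% in Dnmt3-deficient cells.

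The adaptor Blnk (Entrez 17060, chromosome 19, 41003417 to 41069025) kept a higher share of its naive level than the kinases. It was at 335, 342 and 262 FPKM in Dnmt3-sufficient and 366, 364 and 303 in Dnmt3-deficient nB, at 377, 369 and 355 and 379.6, 333 and 402 in GCB, and at 165, 227 and 116 and 113, 222 and 243 in BMPC. The BMPC libraries lay under all libraries of the other types. The change from nB to BMPC was -0.93 and -0.91 log2 (SE 0.26, limma adjusted p 0.0104 and 0.0118), under the minimum of 1. From GCB to BMPC it passed, with -1.16 and -1.02 log2 (adjusted p 3.12e-03 and 6.89e-03). The second value was lost with median of ratios scaling (-0.71 log2, adjusted p 0.0524), voom (-0.98, adjusted p 0.0544) and the fit to only the groups compared (-1.02, adjusted p 0.0721). It was also lost without immunoglobulin genes and Jchain (-0.90) and without Dnmt3-deficient GCB replicate 1 (-0.998) or 3 (-0.96) or BMPC replicate 1 (-0.67), and the first without Dnmt3-sufficient BMPC replicate 3 (-0.92). Between genotypes Blnk differed by 0.14, 0.01 and 0.16 log2 in nB, GCB and BMPC, less than its SE in each.

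Plcg2 (Entrez 234779, chromosome 8, 120022191 to 120159040), the phospholipase at the end of this chain, was at 65.6, 101 and 78.5 FPKM in Dnmt3-sufficient and 94.1, 76.5 and 102 in Dnmt3-deficient nB, and at 87.8, 99.4 and 77.3 and 78.1, 106 and 97.3 in GCB. The nB and GCB libraries overlapped in each genotype (0.13 and 0.04 log2, limma adjusted p 0.911 and 0.986). In BMPC it was at 10.8, 25.3 and 18.9 FPKM in Dnmt3-sufficient and 4.84, 18.9 and 6.98 in Dnmt3-deficient libraries. It fell from nB to BMPC with a change of -2.15 and -3.23 log2 (SE 0.41, adjusted p 6.00e-04 and 1.52e-05), to 22.5% and 11.3% of the naive mean. The genotype change in BMPC was -0.91 log2 (adjusted p 0.216), in the opposite direction to Lyn and Cd81, and among the alternatives run it passed only without Dnmt3-deficient replicate 2 (-1.43 log2, adjusted p 0.0229).

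**Figure D3:**
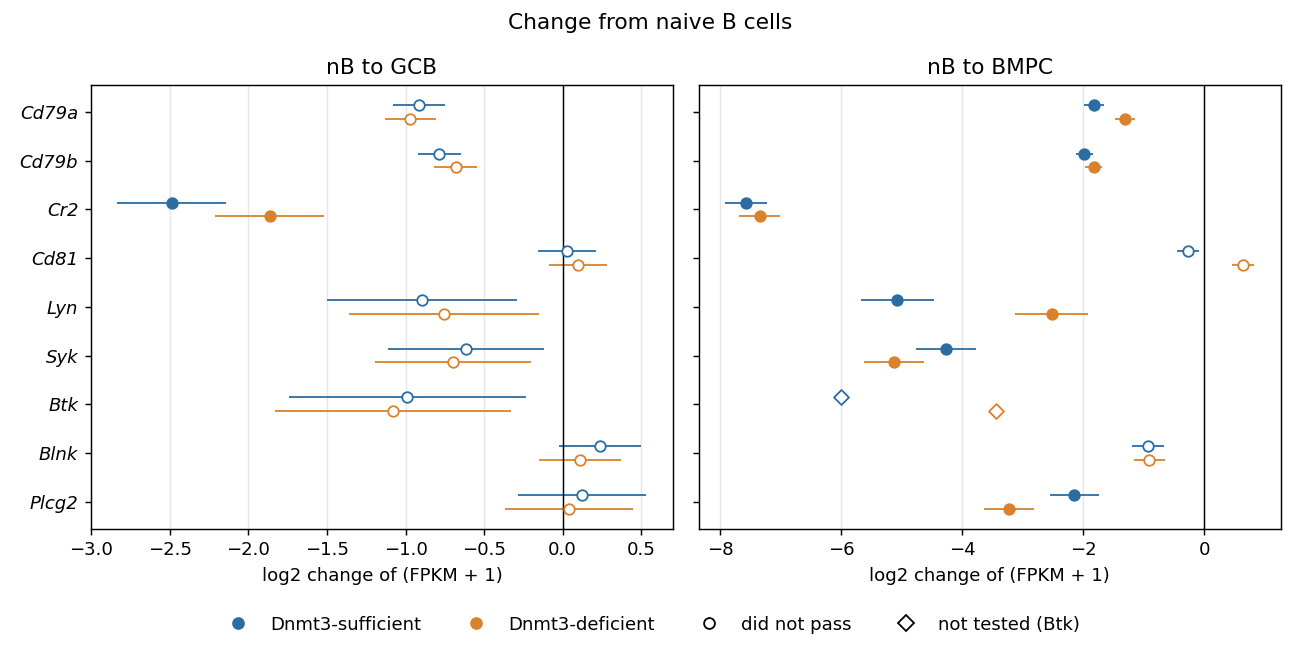
Change in log2(FPKM + 1) from nB to GCB and from nB to BMPC for each gene and genotype, with bars of 1 SE. Filled points passed, open points did not, and open diamonds mark Btk, which was not tested in BMPC. The axes of the panels differ, and Cr2 lies farthest to the left in both.

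Counted by overlap from nB to BMPC, with Btk as a description, 8 of the 9 lay lower in every BMPC library than in every nB library of its genotype (32.3% and 36.2% of all genes did), and 1, Cd81 in Dnmt3-deficient cells, lay higher (9.49%). Against GCB the same counts held, with 32.2% and 35.7% of all genes lower and 8.91% higher in Dnmt3-deficient cells. From nB to GCB, 1 gene lay higher without overlap in Dnmt3-sufficient and 0 in Dnmt3-deficient cells (20.6% and 19.7% of all genes). By the test from GCB to BMPC, 6 of 8 fell (Cd79b, Cr2, Lyn, Syk, Blnk and Plcg2), where 20.9% and 26.1% of all genes did. With median of ratios scaling, and with voom, the count in Dnmt3-deficient cells was 3. Of all 11522 genes, 2466 and 2903 fell in these settings, against 3011 in the main fit. The fall of Lyn from GCB to BMPC in Dnmt3-deficient cells (-1.77 log2, limma adjusted p 0.0326) was lost when any of these was left out: Dnmt3-deficient GCB replicate 2 (0.0988) or 3 (0.0832) or BMPC replicate 2 (0.0554) or 3 (0.109). It was also lost with a pseudocount of 0.1 (0.221), no filter (0.0916), median of ratios scaling (0.0804) and voom (0.112). The median change of all tested genes was itself negative, at -0.11 and -0.13 log2 from nB to GCB, -0.70 and -0.84 log2 from nB to BMPC and -0.56 and -0.73 from GCB to BMPC. Relative to it, the change from nB to BMPC was -1.11 and -0.47 log2 for Cd79a, -1.28 and -0.99 for Cd79b, -0.22 and -0.07 for Blnk and 0.44 and 1.48 for Cd81. In these bulk samples, fewer cells of a type and less RNA per cell cannot be told apart.

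The order of the levels within a group was led by Cd79b and Cd79a, whose ranges did not overlap in nB and GCB and did in BMPC, where Cd79b also overlapped with Cd81 in Dnmt3-deficient cells. In all 6 groups Cd81 and Blnk came next. In Dnmt3-sufficient nB these were followed by Btk, Cr2, Lyn, Syk and Plcg2, and the neighbours Btk and Cr2, and Syk and Plcg2, overlapped. In GCB, Cr2 was the lowest of the 9 and did not overlap with Syk, its neighbour. In Dnmt3-sufficient BMPC, Plcg2 followed Blnk (18.3 ± 7.25 FPKM, SD, n = 3), and Lyn, Btk and Syk followed with overlapping neighbours. In Dnmt3-deficient BMPC, Btk and Lyn followed Blnk, at 31.4 ± 27.3 and 30.2 ± 12.1 FPKM, and overlapped each other. Plcg2 came next at 10.2 ± 7.56 FPKM and overlapped with Lyn. Cd79a and Cd79b together held 61.2% to 80.6% of the summed FPKM of the 9 genes in every library. That sum was 6286 to 7275 FPKM in nB, 3815 to 4431 in GCB, 1646 to 2265 in Dnmt3-sufficient BMPC and 2510.5 to 2782 in Dnmt3-deficient BMPC.

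**Figure D4:**
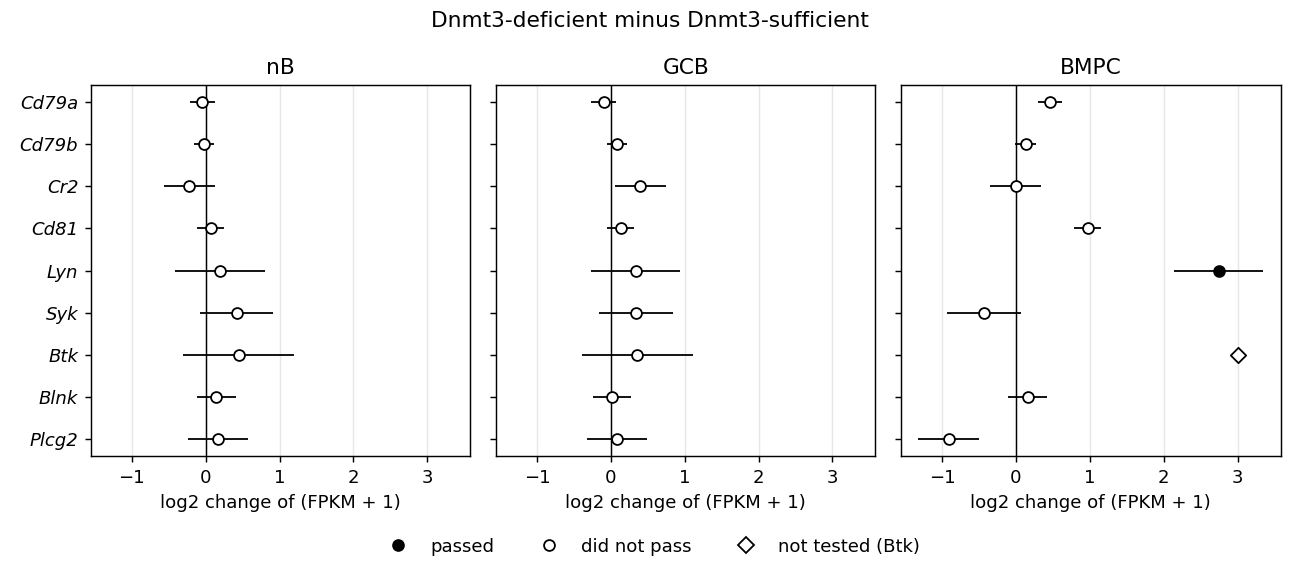
Genotype change (Dnmt3-deficient minus Dnmt3-sufficient) in log2(FPKM + 1) of the 9 genes in nB, GCB and BMPC, with bars of 1 SE. The filled point is Lyn in BMPC at 2.74 log2, open points did not pass, and the open diamond is Btk, which was not tested in BMPC.

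Among the summed markers of other cells in BMPC, the macrophage and erythroid lists separated by genotype and the other lists overlapped. Each pair of ranges is given with Dnmt3-sufficient libraries first. The 6 macrophage markers, all in the table, summed to 63.5 to 87.7 FPKM in Dnmt3-sufficient and 98.4 to 227 in Dnmt3-deficient BMPC, with C1qa at 0 in all 6 libraries. Cd68 alone was at 40.5 to 87.6 FPKM in Dnmt3-sufficient and 98.4 to 158 in Dnmt3-deficient libraries. Csf1r, which was not at 0 in all Dnmt3-sufficient libraries, reached 9.51 FPKM in 1 Dnmt3-deficient library. Adgre1, at 0 in all Dnmt3-sufficient libraries, reached 13.2 FPKM in 1 Dnmt3-deficient library. C1qb went the other way, at 12.0 FPKM in 1 Dnmt3-sufficient library and 0 in the other 5, and Lyz2 overlapped, at 0 to 23.0 and 0 to 69.3 FPKM. The 8 neutrophil markers summed to 63.4 to 526 and 9.37 to 595 FPKM. The 7 mature B markers summed to 41.9, 68.6 and 60.1 FPKM in Dnmt3-sufficient and 117, 58.9 and 129 in Dnmt3-deficient BMPC. In nB and GCB they summed to 1373 to 3724 FPKM. Pax5 was at 0 in all 6 BMPC libraries. Cd22 was at 0 in every Dnmt3-sufficient BMPC library but not in every Dnmt3-deficient one, and Fcer2a was the reverse. The 8 early B markers summed to 686 to 805 and 415 to 808, the 6 T markers to 55.4 to 178 and 118 to 198, and the 4 erythroid markers to 1160 to 2194 and 149 to 797. Among the 7 BMPC markers, Jchain was at 16189 to 25611 and 29771 to 46609 FPKM. The sort is described with a channel of antibodies to CD11b, CD11c, CD90.2 and Ly6-G that takes out autofluorescent cells. The part of these cells in the values of Lyn, Cd81 and Btk was not tested.

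**Figure D5:**
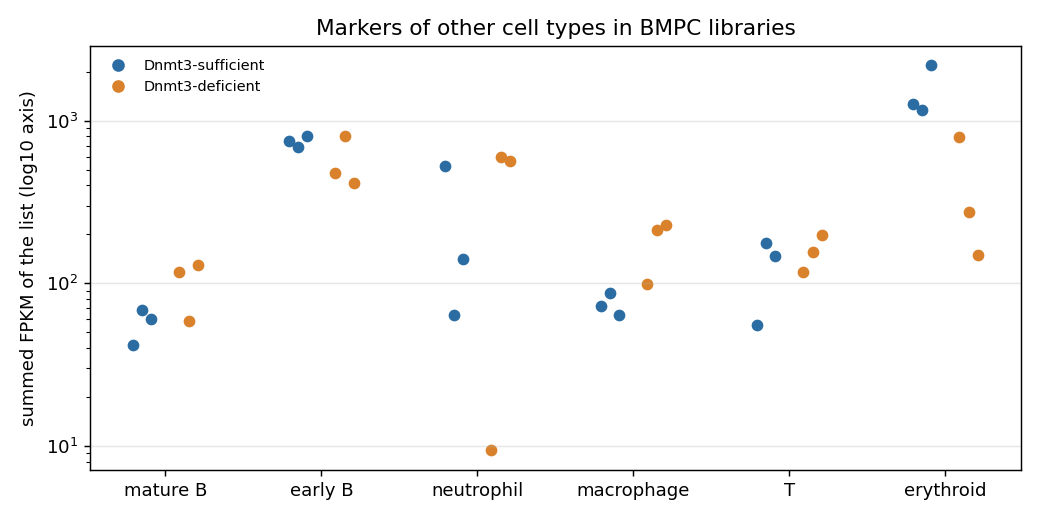
Summed FPKM of marker lists of other cell types in the 6 BMPC libraries (log10 axis), with Dnmt3-sufficient libraries in blue and Dnmt3-deficient in orange. The genotypes do not overlap for macrophage markers, higher in Dnmt3-deficient libraries, and erythroid markers, lower in them.

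Of 57 other genes of the pathway, 56 were above the filter. Between genotypes, 0 passed by limma in nB or GCB, with 0 at an unadjusted p under 0.05 and 0 with voom. Dnmt3-deficient BMPC had 2 that passed as higher and 1 as lower, where 1.34% and 2.65% of all genes did, and with voom 0 did. An unadjusted limma p under 0.05 was found there for 17 of the 56, and for 2342 of all 11522 genes. Map2k2, a kinase of the Ras cascade, was at 0.909, 0.105 and 2.31 FPKM in Dnmt3-sufficient, from 5, 1 and 21 reads, and 6.60, 6.77 and 11.1 in Dnmt3-deficient libraries (2.23 log2, limma adjusted p 0.0117). Rasgrp3, an exchange factor for Ras that answers to the diacylglycerol made by Plcg2, was at 8.13, 12.9 and 15.4 and 26.1, 46.4 and 18.6 FPKM (1.20 log2, adjusted p 0.0420). Vav1, an exchange factor for Rac, was at 12.8, 17.3 and 6.74 FPKM in Dnmt3-sufficient and 8.50, 0.488 and 0.194 in Dnmt3-deficient libraries, with overlap (-2.29 log2, adjusted p 0.0340). Rasgrp3 was lost when Dnmt3-sufficient replicate 1 (adjusted p 0.0924) or Dnmt3-deficient replicate 2 (0.104) was left out. Vav1 was lost when replicate 1 (0.0576) or 2 (0.0773) of the Dnmt3-sufficient libraries, or replicate 2 (0.0854) or 3 (0.0840) of the Dnmt3-deficient ones, was left out. With the spread of the BMPC libraries only, none of the 3 passed (0.779 in each), nor with a quality weight per library (0.466 to 0.580). Of all 11522 genes, 0 passed with the first, and 9 as higher and 9 as lower with the second. With no filter Rasgrp3 (0.0544) and Vav1 (0.0875) did not pass, nor did Rasgrp3 with sex as a covariate (0.0525), and without Dnmt3-sufficient replicate 2 the count was 10. Without that replicate, 210 of all genes passed as higher and 483 as lower, against 154 and 305 in full.

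From nB to GCB in Dnmt3-sufficient cells, 2 of the 56 pathway genes rose and 8 fell, where 7.22% and 6.93% of all genes did. In Dnmt3-deficient cells 1 rose and 7 fell, where 6.31% and 6.61% of all genes did. The adaptor Sh2b2 rose from 1.43, 0.0403 and 1.44 to 10.4, 15.8 and 14.6 FPKM (2.98 log2, limma adjusted p 4.14e-04), and the GTPase Hras from 1.05, 0.115 and 0.0979 to 1.48, 3.63 and 6.24 (1.68 log2, adjusted p 0.0189). The scaffold Bank1 fell from 262, 237 and 289 to 26.01, 31.1 and 26.1 FPKM (-3.20 log2, adjusted p 8.42e-03), and the calcium channel Itpr1 from 27.6, 14.7 and 10.4 to 2.07, 2.62 and 2.11 (-2.40 log2, adjusted p 0.0305). With a pseudocount of 0.1, Hras (adjusted p 0.0579), Bank1 (0.224) and Itpr1 (0.168) did not pass, nor did Itpr1 with no filter (0.0669). Hras was lost without replicate 2 (0.0736) or 3 (0.0767) of the nB or replicate 2 (0.0586) or 3 (0.101) of the GCB libraries. Itpr1 was lost without nB replicate 1 (0.127) or 2 (0.0684) or GCB replicate 1 (0.0907), 2 (0.0711) or 3 (0.0869), and kept only without nB replicate 3 (0.0429).

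From nB to BMPC, 40 of the 56 pathway genes fell in Dnmt3-sufficient and 35 in Dnmt3-deficient cells, where 27.6% and 30.6% of all genes did, and 0 rose, where 9.74% and 6.85% did. Their median change was -2.17 and -1.90 log2, against -2.15 and -2.52 over the 9 receptor genes, Btk included as a description, and -0.70 and -0.84 over all genes. Among those that fell in Dnmt3-sufficient cells were Bank1 (-6.91 log2, limma adjusted p 3.80e-06) and Pik3ap1, an adaptor of phosphoinositide 3-kinase. Pik3ap1 had 58.0, 53.4 and 51.3 FPKM in these nB libraries but 0 reads in all 6 BMPC libraries, and was thus at least 239-fold lower in Dnmt3-sufficient cells. From GCB to BMPC, 28 and 26 pathway genes fell, where 20.9% and 26.1% of all genes did, and 0 rose, where 6.67% and 6.14% did.

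As a description over the 18 libraries, which share cell type and depth, the genes whose log2(FPKM + 1) was most like that of Btk were Irf5 (Pearson r 0.967), Tor1aip1 (0.953), Nedd9 (0.951), Orai2 (0.950) and Ezr (0.945). Those most like the mean of the 9 standardized genes were H2-Aa (0.983), H2-DMb2 (0.977), Cd37 (0.976), Cd22 (0.968) and Pou2f2 (0.968). Within the 9 genes, Btk was most like Lyn (r = 0.943), and Cr2 most like Cd79b (0.975). Cd81 was the least like the other 8, with r from -0.281 with Plcg2 to 0.0540 with Blnk.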

How the data were processed

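RNA-seq was done on 5000 sorted cells per sample, with 13 cycles of cDNA amplification and Nextera libraries. The authors mapped reads to mm9 with TopHat 2.1.1, counted them over exons of UCSC KnownGenes and deposited FPKM per gene and library. Strand use in counting is not given in the sources used here. The deposited table also holds the authors' own comparisons, made with edgeR 3.12.1: log2 CPM means, and fold changes, p-values and FDR kept here as score columns. None of these was used.

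Genes above 1 FPKM in at least 2 libraries (11522 of 21761) were fitted with limma 3.58.1 (R 4.3.3) on log2(FPKM + 1), with a trend, 6 group means and Benjamini-Hochberg adjustment over all genes tested. Passing took a change of 1 log2 or more in size with an adjusted p no higher than 0.05. The pseudocount of 1 understates changes of low genes. Since FPKM gave whole reads within 0.1 of a read, reads were recovered for floors (3 reads, counting error only) and for voom. Alternatives were another pseudocount, filter, scaling, spread, covariate, library weight, test or threshold, and leaving out each library. The setting without immunoglobulin genes and Jchain kept 11519 of the 11522 tested genes and does not control for immunoglobulin RNA. The limma fit was tested on simulated data for the nB genotype comparison only, with large changes in well-expressed genes. That does not test calls in BMPC or of low genes. Sequences came from the mm9 annotation and from RefSeq promoter windows (GRCm38.p6).

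The named genes were the 9 receptor genes, pathway genes that passed between genotypes, and, from nB to GCB and nB to BMPC in Dnmt3-sufficient cells, the 3 largest rises and 3 largest falls among pathway genes that passed with no overlap of libraries; some genes named by this rule are not reported here. For likeness, the 5 genes with the highest Pearson r were named. The 9 genes and the gene lists were chosen with earlier results of these data known.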

Additional observations from a re-analysis of the deposited data

How the results depend on the processing

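Of 2160 single-gene values under the alternatives, 2004 kept direction and call, 66 lost their call, 30 gained one, 50 changed sign and 10 untested values moved by more than the spread. Part of this agreement was fixed in advance. The alternatives that change only a threshold keep every direction, and a gene that passed in neither fit counts as kept. The count of the receptor genes that passed between genotypes in BMPC (1) was 0 with a pseudocount of 0.1, no filter, a fit to the groups compared, a quality weight per library, voom or an adjusted p of 0.01, and 2 with median of ratios scaling, without immunoglobulin genes and Jchain or with no minimum change; leaving out a library gave 1 to 2. That of the pathway genes (3) was 1 with no filter and 0 with the fit to the groups compared, the quality weight, voom or an adjusted p of 0.01, and 2 to 10 without a library. Of all 11522 genes, 154 passed as higher and 305 as lower between genotypes in BMPC in the main fit. These counts were 0 and 0 with the fit to the groups compared and 9 and 9 with the quality weight. They were 106 and 156 with voom and 53 and 109 at an adjusted p of 0.01. From nB to GCB the receptor count (1) was 2 with voom and 3 with no minimum change in Dnmt3-sufficient cells. In Dnmt3-deficient cells it was 2 with median of ratios, the quality weight or voom, 3 with no minimum change and 1 to 2 without a library. The pathway count there was 2 with the pseudocount of 0.1, 19 with the quality weight and 6 at an adjusted p of 0.01 against 10 in Dnmt3-sufficient cells, and 2, 14, 4 and, without a library, 4 to 5 against 8 in Dnmt3-deficient cells. With the quality weight, 1387 of all genes rose and 1872 fell in Dnmt3-sufficient cells, against 832 and 799 in the main fit. In Dnmt3-deficient cells 1300 rose and 1863 fell, against 727 and 762. From GCB to BMPC in Dnmt3-deficient cells the receptor count (6) was 3 with median of ratios or voom. Without a library the interaction counts, 0 in full, were 0 to 1 for the receptor genes (BMPC against nB) and 0 to 3 (BMPC against nB) and 0 to 2 (BMPC against GCB) for the pathway, and the log2 ratio of Cd79a to Cd79b between genotypes in nB was -0.12 to 0.055. The cause was not tested for any of these.

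Small changes turned sign. Between genotypes this held for Cd79b in nB (0.060 with voom, -0.11 to 0.051 without a library), Cd79a in nB (-0.14 to 0.043 without a library), Cd81 in nB (-0.053 to 0.17), Blnk in GCB (-0.044 to 0.091) and BMPC (-0.083 to 0.51), Plcg2 in GCB (-0.0088 to 0.21) and Syk in BMPC (-0.91 to 0.25). From nB to GCB, Cd81 was -0.039 with median of ratios and -0.037 to 0.098 without a library in Dnmt3-sufficient cells and -0.0019 to 0.22 in Dnmt3-deficient cells. Plcg2 was -0.019 to 0.29 in Dnmt3-sufficient cells, and -0.00131 with the quality weight and -0.076 to 0.17 without a library in Dnmt3-deficient cells. In the interaction of GCB against nB, without a library, Btk was -0.43 to 0.12, Cd79a -0.14 to 0.041 (0.026 with the quality weight), Cd81 -0.031 to 0.19, Plcg2 -0.24 to 0.061 and Syk -0.18 to 0.037. In that of BMPC against GCB, Blnk was -0.098 to 0.49, Cd79b -0.053 to 0.24 (-0.038 with the quality weight) and Cr2, with 0 reads in all BMPC libraries, 0.43 with voom, and in that of BMPC against nB, Blnk was -0.23 to 0.36.

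The Dnmt3-sufficient and Dnmt3-deficient GCB titles share 3 names, and same-named libraries are of the same sex. The deviations of same-named libraries correlated at -8.06e-05, -0.0171 and 0.0257. With 3 libraries per genotype, this cannot settle whether same-named libraries were matched. With the replicate block 0 receptor and 0 pathway genes passed between genotypes in GCB. For nB and BMPC, no paired analysis was possible because the titles share no names.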
